A study of Mus musculus with 4 samples.

Results

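Single T cells carrying the RNA of a recent T cell receptor (TCR) signal were followed in lymph nodes draining a tumour. The cells were CD8 T cells, sorted as CD44 and CD90.1 positive from C57BL/6 mice 14 days after tumour implantation. The M9 group is labelled as bearing high affinity GP33 and the C6M9 group as bearing low affinity GP33, where GP33 names a peptide from a virus that CD8 T cells recognise. Each group had 2 libraries, which are the replicates (n = 2 per group throughout), called biological duplicates in the labels, with cells from 10 mice for M9 and 35 for C6M9. Which mice went into which library is not stated. Each SE and p here therefore rests on the spread between these libraries, which may in part be technical. In the gene tests that spread is in part shared over genes, so it is not that of a single gene alone. The kind of tumour, the origin of the CD90.1 positive cells and the sex of the mice are not given in the labels, and cells of single mice cannot be told apart.

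The TCR-engaged cells were chosen by their RNA. A score was taken in each cell as the mean over Tnfrsf4, Cd83, Xcl1, Tnfrsf9, Egr3 and Cd200 of the natural log of 1 plus the UMIs per 10000 (UMI, unique molecular identifier, a count of 1 captured RNA molecule), and the top 12% of cells, pooled over the 4 libraries, were taken. Before that, cells with signs of other states had been left out: those with 2 or more UMIs of the B cell genes Cd79a and Ms4a1, 5 or more of granzymes Gzma and Gzmb, 3 or more of the cycling genes Mki67, Top2a and Ccnb2, or 3 or more of Ifng. This gave 811 TCR-engaged cells of 6762 filtered cells, out of 10324 cells of sufficient quality and 11113 barcodes. The lowest score inside was 0.4744 and the highest outside was 0.4743, so the limit cuts a continuous range and the cells are a range of the score, not a separate cell type. Of the 20 cells just inside and the 20 just outside, 19 each had a UMI of Cd200, and 13 and 12 had one of Xcl1. The remaining 5951 filtered cells are called other filtered cells below.

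A T cell whose receptor binds its peptide switches on a short programme of genes. Calcium and kinase signals activate the transcription factors NFAT, AP-1 and NF-kB, which induce EGR and NR4A factors, and these in turn drive costimulatory receptors of the TNF family and inhibitors that damp the signal. The same signal raises MYC and with it the machinery for making ribosomes. In the score, Tnfrsf4 (OX40) and Tnfrsf9 (4-1BB) are costimulatory receptors, Cd83 is an activation marker, Xcl1 is a chemokine that attracts cross-presenting dendritic cells, Egr3 is a transcription factor and Cd200 is a surface ligand that inhibits myeloid cells.

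Promoter sequence is shown for 4 genes that stand for the behaviours described below: Tnfrsf9, a score gene; Nr4a1, whose level in the TCR-engaged cells was not called between groups; and Egr2 and Batf, which were lower in C6M9. Each is 300 bases of RefSeq on GRCm38.p6, from 250 bases before a transcription start to 50 after it, on the plus strand; where a gene had several starts the one shown is the first with a match. Capitals mark the match, found on either strand. In Tnfrsf9 it is an NF-kB site pattern (GGGA, any base, TT, any base, CC). In Nr4a1, Egr2 and Batf it is TGACG, the core of the CREB and ATF family site.
Tnfrsf9, chr4:150927749-150928048: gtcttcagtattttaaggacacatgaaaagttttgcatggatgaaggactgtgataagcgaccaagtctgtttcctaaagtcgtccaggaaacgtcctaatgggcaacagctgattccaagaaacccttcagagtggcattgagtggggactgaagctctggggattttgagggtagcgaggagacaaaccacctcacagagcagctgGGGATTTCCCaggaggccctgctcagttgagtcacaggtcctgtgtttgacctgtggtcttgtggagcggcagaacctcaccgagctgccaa
Nr4a1, chr15:101266596-101266895: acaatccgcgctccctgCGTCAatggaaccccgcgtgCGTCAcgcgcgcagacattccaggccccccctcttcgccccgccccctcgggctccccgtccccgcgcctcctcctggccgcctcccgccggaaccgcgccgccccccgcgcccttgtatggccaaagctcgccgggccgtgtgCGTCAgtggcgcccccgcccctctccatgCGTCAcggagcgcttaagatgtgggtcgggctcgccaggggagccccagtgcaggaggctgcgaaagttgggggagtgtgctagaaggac
Egr2, chr10:67537619-67537918: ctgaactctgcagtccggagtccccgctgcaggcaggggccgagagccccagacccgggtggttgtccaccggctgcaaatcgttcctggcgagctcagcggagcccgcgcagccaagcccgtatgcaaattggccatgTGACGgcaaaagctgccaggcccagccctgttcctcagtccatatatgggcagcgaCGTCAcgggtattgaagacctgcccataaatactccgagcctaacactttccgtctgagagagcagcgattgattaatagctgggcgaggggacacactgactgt
Batf, chr12:85686470-85686769: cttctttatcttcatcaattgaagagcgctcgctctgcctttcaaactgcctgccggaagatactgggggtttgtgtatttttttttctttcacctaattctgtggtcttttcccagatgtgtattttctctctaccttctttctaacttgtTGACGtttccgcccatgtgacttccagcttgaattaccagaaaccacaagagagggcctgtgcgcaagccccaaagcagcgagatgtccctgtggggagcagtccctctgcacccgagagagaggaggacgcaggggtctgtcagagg
The Tnfrsf9 match begins 42 bases before the start site, the Nr4a1 matches 233, 213, 69 and 40 bases before it, those of Egr2 111 and 55 bases before it, and that of Batf 98 bases before it. Over all 32851 windows of this length, 20.8% held TGACG and 1.20% held the NF-kB pattern. Among 19 TCR-induced transcription factor genes, 12 had a window, and 11 of their 24 windows (45.8%) held TGACG. Among 18 growth and ribosome biogenesis genes, 14 had a window, and 10 of 16 windows (62.5%) held it. Windows of 1 gene overlap, and these shares describe letters only. The E-box CACGTG, a MYC site pattern, was in 7.15% of all windows and in 2 of the 16 growth gene windows, those of Hspd1 and Eif4a1.

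TCR-engaged cells made up a larger share of the filtered cells in M9 than in C6M9. The share was 21.5% in M9 replicate 1 (631 of 2939 cells, 95% Wilson interval 20.02 to 23.0%) and 11.8% in M9 replicate 2 (95 of 807, 9.73 to 14.2%). In C6M9 replicate 1 it was 2.50% (49 of 1960, 1.90 to 3.29%) and in C6M9 replicate 2 it was 3.41% (36 of 1056, 2.47 to 4.68%). Both M9 libraries lay above both C6M9 libraries, and the 2 M9 libraries differed from each other beyond their intervals, which cover counting error only. The mean was 16.6% ± 6.86 (SD, n = 2) in M9 and 2.95% ± 0.643 (SD, n = 2) in C6M9, a difference of -13.7 percentage points. With 2 libraries a side the exact permutation p, two-sided, was 0.33, the smallest this design allows. Without M9 replicate 1 the difference was -8.82 points.

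**Figure D1:**
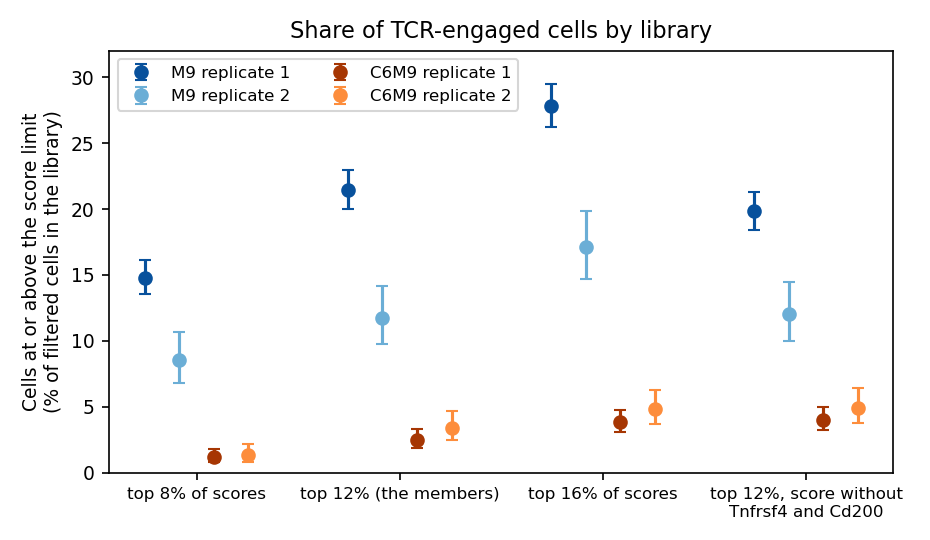
Share of filtered cells at or above the score limit (y axis, percent) in each of the 4 libraries, for 3 limits and for a score of the other 4 genes; points are libraries and bars are 95% Wilson intervals. At the limit used, the M9 libraries are at 21.5% and 11.8% and the C6M9 libraries at 2.50% and 3.41%.

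The score genes themselves, which chose the cells and are given as description only, were not present in equal parts. Levels are UMIs summed over the TCR-engaged cells of a library per 1000000 (CPM), scaled by TMM, edgeR's correction for library composition. Tnfrsf4 was at 116 and 99.2 CPM in the M9 libraries (replicates 1 and 2, the order used below) and at 8.07 and 16.01 in C6M9. Cd200 was at 350 and 345 CPM in M9 and at 135 and 103 in C6M9. Xcl1 went the other way, with 416 and 231 CPM in M9 and 854 and 567 in C6M9. Cd83 was at 157 and 127 CPM in M9 and 144 and 168 in C6M9, and Tnfrsf9 at 169 and 153 against 182 and 152. Xcl1 gave 22.9% and 15.8% of the summed score of the M9 cells and 34.0% and 31.3% of that of the C6M9 cells, while Tnfrsf4 gave 8.61% and 7.99% against 1.76% and 2.45%. A TCR-engaged cell had UMIs of a median of 4 of the 6 genes in both M9 libraries and 3 in both C6M9 libraries. With the score taken over the other 4 genes, without Tnfrsf4 and Cd200, the share was still 15.9% ± 5.53 (SD, n = 2) in M9 and 4.48% ± 0.632 in C6M9.

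The same score limit was applied to the cells that the filters had left out. Among cells left out for Ifng UMIs, 41.3% and 34.5% reached it in M9 and 10.6% and 3.77% in C6M9. Among cells left out for cycling genes, 18.6% and 10.8% reached it in M9 and 2.01% and 2.87% in C6M9. In both sets the M9 libraries lay above the C6M9 libraries.

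The libraries held 33.7 to 79.2 UMIs each in units of 1000000, and the TCR-engaged cells 9.98 and 2.24 such units in M9 and 0.890 and 0.772 in C6M9. TCR-engaged cells were deeper than other filtered cells, with medians of 14161 and 22021 UMIs in M9 and 15352 and 20943 in C6M9, against 10881 and 16700, and 10927 and 15556. The labelled cell type was checked by its markers: a UMI of Cd8a or Cd8b1 was found in 100% and 98.9% of TCR-engaged cells in M9 and in 100% and 97.2% in C6M9. The 12 myeloid and dendritic markers summed to 92.0 to 100.04 CPM in 3 libraries and to 417 CPM in C6M9 replicate 1, where 1 cell held all 398 UMIs of the class II genes H2-Aa, H2-Ab1 and H2-Eb1. In M9, 1 and 2 TCR-engaged cells had 10 or more UMIs of these class II genes. The regulatory T cell factor Foxp3 was found in 1 cell of M9 replicate 2 and 1 of C6M9 replicate 2, neither with a UMI of Cd8a or Cd8b1. UMIs summed over genes of CD4, regulatory T, B, myeloid and dendritic cells reached 2 in 52 and 14 TCR-engaged cells of M9 and 3 and 4 of C6M9. Without Cd79b these were 14 and 7, and 1 and 3. The B cell gene Ms4a1, which the filters used, was near 0. Libraries shared 7 barcodes over all pairs, 1 of them that of a TCR-engaged cell. Scrublet's automatic threshold marked at most 0.572% of a library, so it was not used. The highest doublet scores were left out at a rate of 0.8% per 1000 barcodes found in the library, not by the cells loaded. This removed 18 TCR-engaged cells, all of M9 replicate 1.

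Set beside the other filtered cells of their own library, TCR-engaged cells were higher in genes outside the score that TCR signals induce, and lower in genes of resting and recirculating cells. This follows the contrast that chose the cells, so it is a description with no test. Of 6331 genes with at least 20 CPM in a sum, 375 (5.92%) were past 1.5-fold higher in all 4 libraries and 184 (2.91%) past 1.5-fold lower. The nuclear receptor gene Nr4a1, an early TCR target, was at 54.8 and 74.9 CPM in TCR-engaged cells of M9 and 51.7 and 73.8 in C6M9, against 15.0, 5.63, 4.43 and 9.32 in the other cells of the same libraries, a mean of 7.29-fold. Its relative Nr4a3 was 7.46-fold higher, the chemokine Ccl4 13.01-fold, Irf4 4.81-fold, Myc 5.31-fold and Rgs16, a brake on chemokine receptor signals, 5.18-fold. The folds are means of log2 ratios over the 4 libraries after adding 1 CPM. Depth differed between the 2 sets, and among cells of 10000 to 30000 UMIs alone 291 genes were higher and 156 lower by the same rule.

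**Figure D2:**
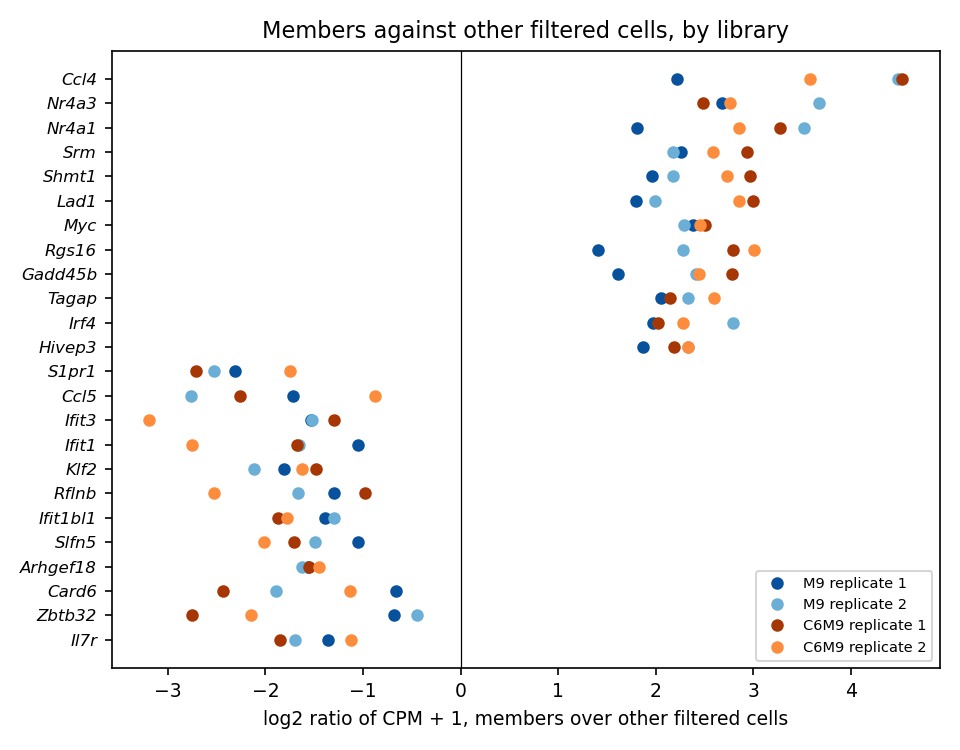
Log2 ratio of CPM + 1 of TCR-engaged over other filtered cells (x axis) in each library (points) for the 12 genes with the highest and the 12 with the lowest mean ratio outside the score. Every point of the upper 12 genes lies above 0 and every point of the lower 12 below it, which the choice of genes fixes.

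By role, 12 of 17 measured TCR-induced transcription factors were higher in TCR-engaged cells and none lower by the 1.5-fold rule. Over all genes these shares were 5.92% and 2.91%. The median log2 ratio of these factors was 1.32, against 0.01 over all genes. Zbtb32, of that list, was below other filtered cells in all 4 libraries, by a mean of 2.84-fold. It missed the rule because M9 replicate 2 was not past 1.5-fold (log2 ratio -0.45). Of 18 growth and ribosome biogenesis genes 17 were higher, with a median of 1.48, led by Srm (spermidine synthase, 5.62-fold) and the amino acid carrier Slc7a5. Of 21 feedback inhibitors 4 were higher: Nfkbia, Nfkbid and Nfkbib, which hold NF-kB in check, and Rgs16. Dgka, a lipid kinase that damps TCR signals, was lower. Of 17 progenitor, naive and memory genes 6 were lower, among them S1pr1, the receptor for exit from the lymph node (5.01-fold), Klf2, which drives S1pr1 (3.38-fold), the IL-7 receptor Il7r (2.84-fold), Klf3 and Plac8. Of 12 measured interferon stimulated genes 6 were lower, among them Ifit3 (3.69-fold) and Ifit1 (3.45-fold). In the list of 15 measured stress and immediate early genes, which holds Fos and Jun, Btg2 was lower and none was higher.

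Within M9 replicate 1, the library with the most TCR-engaged cells, split into 4 parts by the pooled score, levels followed the score for some genes and not for others. From the lowest to the highest part (153, 149, 154 and 175 cells) Nr4a1 was at 19.8, 30.6, 35.4 and 124 CPM and Myc at 18.9, 24.8, 57.4 and 129 CPM. Klf2 was at 134, 165, 86.5 and 50.3 CPM. Tox, a factor of chronically stimulated T cells, was at 243, 238, 207 and 227 CPM. The score chose and ordered these cells, so the trend is described and not tested. The scores of TCR-engaged cells differed between groups, with medians of 0.685 and 0.671 in M9 and 0.594 and 0.566 in C6M9.

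Between groups, the TCR-engaged cells of C6M9 had less RNA of several TCR-induced factors and costimulatory or inhibitory receptors than those of M9, and more RNA of ribosome biogenesis genes and of memory-type genes. edgeR's quasi-likelihood test of C6M9 against M9 over the sums of TCR-engaged cells called 259 of 8467 genes at a Benjamini-Hochberg adjusted p of at most 0.05. In C6M9, 129 (1.52%) were higher and 130 (1.54%) lower; they include the score genes Xcl1, higher, and Tnfrsf4 and Cd200, lower, which the choice of cells used. Without TMM the split was 109 higher and 176 lower. Differences below are log2 of C6M9 over M9, with the SE of the fit. The cells and the gene lists were chosen with earlier results of these data known. Counts within the lists are therefore description and no independent support. The shares over all genes, 1.52% higher and 1.54% lower, are the ones to set beside each such count. DESeq2 called 137 genes, of which 133 were among the 259. The lower-scored TCR-engaged cells alone, split at the median of the score, gave 64.

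How the cells are chosen bears on this comparison. When the top 12% was taken within each library, so that an equal share of the filtered cells of every library was compared, 739 genes were called. This choice raised the C6M9 cells from 49 and 36 to 235 and 127, and cut those of M9 replicate 1 from 631 to 353. The C6M9 cells added that way have lower scores than any cell above the pooled limit. The cells dropped from M9 replicate 1 were the lowest-scored of its TCR-engaged cells. Of the 129 higher genes 25 were called higher again, and of the 130 lower genes 106 were called lower again. Results that changed under that choice are marked below.

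The largest differences were of genes lower in C6M9. Penk, which encodes the opioid precursor proenkephalin (chr4:4133531-4138819, minus strand), was at 66.6 and 50.7 CPM in M9 and had no UMI in either C6M9 library (adjusted p = 4.8e-06, edgeR; called in 18 of 18 alternatives). Its UMIs came from few cells, 8.08% and 6.32% of the TCR-engaged cells in M9 (51 of 631 and 6 of 95). In C6M9 0 of 85 cells had one, which allows a share of up to 3.53%, by counting error only. No fold is given for genes at 0 in C6M9, since the UMIs of 1 cell are not independent. Sostdc1, a secreted WNT and BMP antagonist, and Ppp2r3a, a phosphatase subunit, also had no UMI in C6M9 and were called lower. Sostdc1 was found in 16 and 1 cells of the M9 libraries (2.54% and 1.05%), shares within the limit that 0 of 85 cells allows. Ppp2r3a was found in 61 and 18 cells (9.67% and 18.9%), and it was not called without M9 replicate 1 (adjusted p = 0.0809). Tnfsf4, the ligand of OX40, was at 55.9 and 55.4 CPM in M9 and 6.92 and 1.33 in C6M9 (-3.68, SE 0.38, adjusted p = 4.05e-05). Among the other genes of this size, Rasgef1a (-2.51), Tiam1 (-2.27), an activator of the GTPase RAC, and Cd22 (-2.34), a lectin best known on B cells, were called in at least 17 of 18 alternatives. None of the other 4 tested B cell markers was called, among them Cd79b at 16.8 and 11.7 CPM in M9 and 9.22 and 10.7 in C6M9. The 10 B cell markers summed to 372 and 358 against 514 and 321 CPM. That sum holds Cd22 itself, and Cd79a and Ms4a1, which the filters limited. The 514 is of C6M9 replicate 1, which holds the cell with 398 class II UMIs. The origin of the Cd22 RNA was not tested. Syne3, Pdgfb, Klc3, Slc25a42 and 6330403K07Rik had differences of -2.25 to -2.69; each lost its call when at least 1 library was left out, Syne3 and Pdgfb for any of the 4.

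Of 18 tested TCR-induced transcription factors, 8 fell and 2 rose in C6M9, against 1.54% and 1.52% over all genes. Their median was -0.43 against -0.0045 over all genes, and the median of this list in other filtered cells was -0.28. Whether a difference was another one in TCR-engaged cells is tested below, and of this list Batf, Zbtb32 and Irf8 were called. The number of factors that fell in TCR-engaged cells was 4 with DESeq2 and 5 with the score on cells thinned to 5000 UMIs. It was 1 in the lower-scored cells and 14 with the top 12% of each library. Egr2, which restrains T cell activation, was at 51.2 and 63.2 CPM in M9 and 13.8 and 17.3 in C6M9 (-1.85, SE 0.27, adjusted p = 7.61e-04). Its relative Egr1 was at 108 and 145 CPM in M9 and 65.7 and 53.4 in C6M9 (-1.05, SE 0.20). Batf, an AP-1 partner factor of effector T cells, was at 142 and 140 CPM against 73.8 and 66.7 (-0.999, SE 0.17). Tox was at 230 and 308 CPM against 112 and 132 (-1.13, SE 0.17), and was called in 18 of 18 alternatives. For each of these both C6M9 libraries lay below both M9 libraries. Nr4a2, Bhlhe40, Rel and Zbtb32 also fell, by 0.65 to 1.90. Their calls were less firm: Nr4a2 was not called without C6M9 replicate 1 (-0.93), where it was at 8.07 CPM against 50.7 in replicate 2, Bhlhe40 not without M9 replicate 1 (-0.83), Rel not without C6M9 replicate 2 (-0.51), and Zbtb32, with 7 UMIs in C6M9, not without C6M9 replicate 1 (-1.60) or either M9 library (-2.12 and -1.78). With the top 12% of each library the difference of Zbtb32 was 0.14.

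The 2 factors that rose were Irf8, at 50.5 and 55.9 CPM in M9 and 138 and 92.1 in C6M9 (1.14, SE 0.19, adjusted p = 0.00223), and Myc, at 60.7 and 62.8 CPM against 101.4 and 120.1 (0.84, SE 0.16, adjusted p = 0.00849). Both were lower in C6M9 when the top 12% was taken within each library (-0.25 for Irf8, and -0.63 for Myc, adjusted p = 0.0323). Nr4a1, Nr4a3 and Irf4, among the factors most raised over other filtered cells, did not pass the test. Nr4a1 was at 55.3 and 72.8 CPM in M9 and 53.0 and 76.0 in C6M9 (0.04, SE 0.21), Nr4a3 at 57.1 and 65.8 against 40.3 and 68.0 (-0.18, SE 0.22), and Irf4 at 61.1 and 113 against 66.9 and 72.0 (-0.26, SE 0.26). The groups overlapped for all 3. With the top 12% of each library all 3 were called lower in C6M9, by 1.38, 1.49 and 1.01, a choice that compares equal shares of cells and not cells at or above 1 common score.

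**Figure D3:**
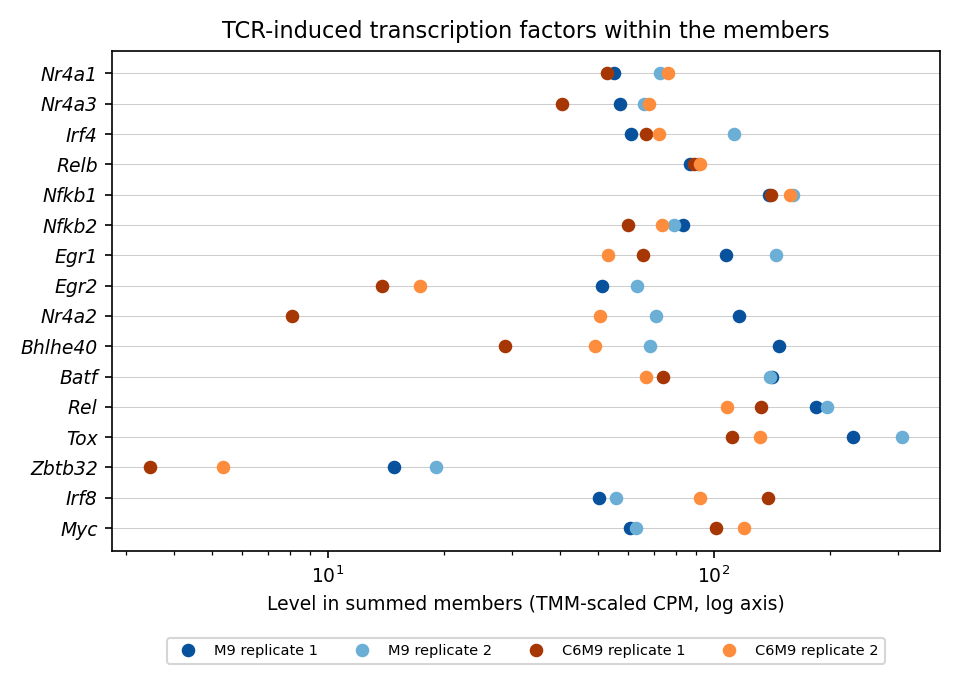
Level of 16 TCR-induced transcription factor genes in summed TCR-engaged cells (x axis, TMM-scaled CPM, log scale), with 1 point per library. For Egr2 the M9 libraries are at 51.2 and 63.2 and the C6M9 libraries at 13.8 and 17.3, while for Nr4a1 the 2 groups overlap.

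Of 13 tested genes of the TNF superfamily and costimulation, 4 fell and 1 rose, against 1.54% and 1.52% over all genes. With the top 12% of each library 8 fell. The median was -0.45, and that of this list in other filtered cells was -0.26. Only Tnfrsf18 of this list was called in the test below of whether a difference was another one in TCR-engaged cells. Besides Tnfsf4, Tnfrsf18 (GITR) was at 170 and 150 CPM in M9 and 57.6 and 65.4 in C6M9 (-1.39, SE 0.17, adjusted p = 2.09e-04), and Icos at 155 and 152 against 64.5 and 73.4 (-1.16, SE 0.17). Tnfsf8, the CD30 ligand, was at 141 and 109 CPM against 77.2 and 49.4 (-0.99, SE 0.21), with no call without C6M9 replicate 2 (-0.71). Tnfsf4, Tnfrsf18 and Icos were called in 18 of 18 alternatives. Lymphotoxin beta, Ltb, rose by 0.49 with an adjusted p of 0.0495, and without M9 replicate 2 or either C6M9 library (0.38, 0.52 and 0.46) it was not called. Cd27 was at 277 and 296 CPM in M9 and 304 and 302 in C6M9 and did not pass the test (0.08, SE 0.13).

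Of 5 tested inhibitory receptors Lag3 and Btla fell and none rose, against 1.54% and 1.52% over all genes. The median was -0.92, and that of this list in other filtered cells was -0.44. None of this list was called in the test below of whether a difference was another one in TCR-engaged cells. Lag3 was at 301 and 302 CPM in M9 and 130 and 120 in C6M9 (-1.27, SE 0.15, adjusted p = 9.61e-05), and Btla at 75.7 and 79.7 against 41.5 and 40.0 (-0.92, SE 0.19; -0.95 and not called without C6M9 replicate 1). Pdcd1 (PD-1), at 62.3 and 48.5 against 47.3 and 33.4 CPM, did not pass. Of 11 activation receptors Slamf6, a marker of progenitor exhausted T cells, fell from 591 and 549 CPM to 263 and 216 (-1.25, SE 0.14), and Izumo1r, the folate receptor 4 gene of anergic and regulatory T cells, from 134 and 139 CPM to 39.2 and 17.3 (-2.24, SE 0.24). Both were called in 18 of 18 alternatives. Nt5e (CD73) was also called lower, at an adjusted p of 0.0493, and lost the call without either C6M9 library (-2.77 and -2.97). Of 26 tested feedback inhibitors 1 was called, Dgkz, a diacylglycerol kinase (-0.81, SE 0.16; -0.65 and not called without C6M9 replicate 2). Of 4 tested cytokine and chemokine genes 1 rose, Ccl5, whose levels are given below, and 1 fell. The latter was the interferon-induced chemokine Cxcl10, from 71.3 and 83.6 CPM to 30.0 and 8.005 (-1.96, SE 0.31).

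The list of progenitor, naive and memory genes leaves out Slamf6, the progenitor marker that fell in C6M9 (above). Of its 17 genes 5 rose in C6M9 and none fell, against 1.52% and 1.54% over all genes. Their median was 0.47, and 0.19 for the same genes in other filtered cells. The number that rose was 3 in the lower-scored cells, 8 with the score without Tnfrsf4 and Cd200 and 11 with the top 12% of each library. Plac8 was at 25.9 and 16.02 CPM in M9 and 148 and 125 in C6M9 (2.59, SE 0.20, adjusted p = 4.06e-06). Ly6c2 was at 66.8 and 97.4 CPM against 246 and 410 (2.03, SE 0.21), Il7r at 66.9 and 74.5 against 128 and 172 (1.09, SE 0.17) and Id3, an inhibitor of E proteins, at 274 and 268 against 454 and 450 (0.74, SE 0.13). Klf2 rose by 0.79 (SE 0.17), and without C6M9 replicate 1 it was not called (0.61). In other filtered cells Il7r was higher in C6M9 too, at 451 and 366 CPM (not scaled by TMM) against 171 and 251 in M9. Klf2 was there at 509 and 447 CPM against 376 and 373. Whether a difference was another one in TCR-engaged cells is tested below, and of this list Id3, Myb and Ly6c2 were called. Tcf7, which encodes the factor TCF1 of progenitor cells, was at 380 and 405 CPM in M9 and 386 and 420 in C6M9 and did not pass the test (0.04, SE 0.13). Ly6a (Sca-1), outside the lists, was at 34.9 and 32.9 CPM against 134 and 123 (1.91, SE 0.17, adjusted p = 4.8e-06). Plac8 and Ly6a were called in 18 of 18 alternatives.

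**Figure D4:**
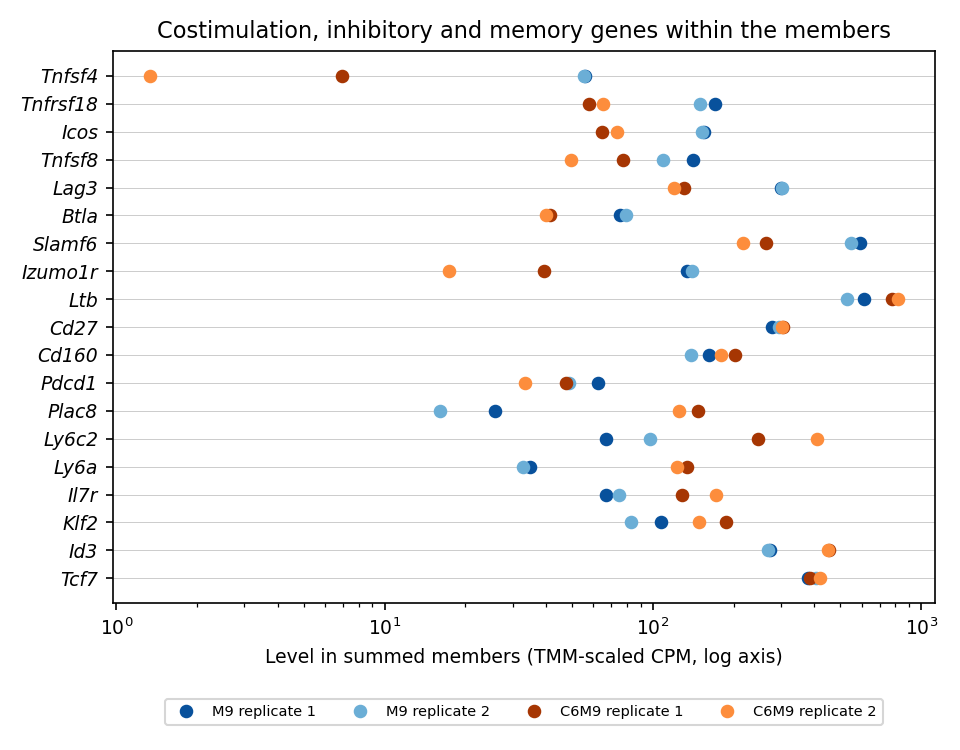
Level of 19 receptor, ligand and memory-type genes in summed TCR-engaged cells (x axis, TMM-scaled CPM, log scale), with 1 point per library. The C6M9 libraries lie below both M9 libraries for Tnfsf4, Tnfrsf18, Icos, Lag3 and Slamf6, above both for Plac8, Ly6c2 and Ly6a, and beside them for Tcf7 and Cd27.

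Of 12 tested effector genes, Klrd1, the chemokine receptor Cxcr6 and S100a4 rose and Eomes, a T-box factor, fell (356 and 402 CPM in M9 against 226 and 195 in C6M9, -0.84, SE 0.14). Over all genes 1.52% rose and 1.54% fell. Cxcr6 was at 12.4 and 6.50 CPM in M9 and 34.6 and 32.02 in C6M9 (1.65, SE 0.32), and among the top 8% of scores its difference was -0.06. S100a4 passed at an adjusted p of 0.0493 and not without M9 replicate 1 (0.53) or C6M9 replicate 2 (0.70). The chemokine Ccl5 was at 55.8 and 44.2 CPM against 114 and 189 (1.55, SE 0.20). In other filtered cells Ccl5 was higher in C6M9 too, at 538 and 340 CPM (not scaled by TMM) against 184 and 315 in M9. Cxcr6 had a UMI in 25.5% and 29.3% of those cells in C6M9, against 11.4% and 18.1% in M9. Lgals3 (galectin-3) had the largest rise among called genes with both C6M9 libraries above both M9 libraries and at least 10 CPM, score and filter genes left out, 2.67 (SE 0.50), at 3.84 and 2.17 against 10.4 and 34.7 CPM. Single cells gave 66.7% and 61.5% of its UMIs in C6M9, and it was not called without C6M9 replicate 2 (1.63) or M9 replicate 2 (2.51). Pold2, a DNA polymerase subunit, was at 19.3 and 18.6 CPM against 45.0 and 45.4 (1.24, SE 0.23), and Ifrd2 rose by 1.22 (SE 0.24). D030056L22Rik (1.34, SE 0.29) was not called without C6M9 replicate 1 (1.06), nor Trmt61a (1.27, SE 0.29) without it or without M9 replicate 1 (1.20 and 1.09). Utf1 (1.74) was not called without any of M9 replicate 1 (1.54), M9 replicate 2 (1.83) or C6M9 replicate 2 (1.53), and with the top 12% of each library its difference was -0.47.

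No immediate early or dissociation stress gene of 18 tested was called (median -0.22). Their summed level did differ between libraries and not by group, at 3078 and 2224 CPM in M9 and 2092 and 2877 in C6M9. No S phase gene of 13 tested was called. Of 14 glycolysis genes lactate dehydrogenase Ldha rose (0.50, SE 0.13), without a call when either C6M9 library was left out (0.43 and 0.56). Of 12 interferon stimulated genes the GTPase Ifi47 rose, from 105 and 110 CPM to 221 and 200 (0.97, SE 0.14), and was called in 18 of 18 alternatives. Of the markers of other cells, H2-Aa and H2-Ab1 were called higher in C6M9 through the 1 cell of C6M9 replicate 1 named above, and without that library their differences were -1.38 and -1.33. Ikzf2 (Helios), of the regulatory T cell list, fell by 0.71 and Cd3e, of the CD8 T cell list, by 0.48; without C6M9 replicate 1 neither was called (-0.55 and -0.42), nor was Cd3e without C6M9 replicate 2 (-0.54).

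Genes for building ribosomes rose together in the TCR-engaged cells of C6M9. Of 18 tested growth and ribosome biogenesis genes 12 rose and none fell, against 1.52% and 1.54% over all genes. All 18 differences were above 0, and their median was 0.68, against 0.29 for the same genes in other filtered cells. Srm was at 59.8 and 64.1 CPM in M9 and 167 and 149 in C6M9 (1.37, SE 0.16, adjusted p = 9.45e-05). The nucleolar chaperone Npm1 was at 1671 and 1575 CPM against 2854 and 2519 (0.73, SE 0.12), the mitochondrial chaperone Hspd1 at 296 and 305 against 549 and 559 (0.88, SE 0.13), and nucleolin, Ncl, at 1242 and 1407 against 2038 and 1832 (0.55, SE 0.12). The C6M9 libraries lay above both M9 libraries for each. Nolc1, Nop56, Nop58, Fbl, Rrp9, Gnl3, Eif4a1 and Hspe1 rose as well. Without C6M9 replicate 1 the calls of Ncl, Nolc1, Nop58, Fbl and Rrp9 were lost (0.47, 0.63, 0.53, 0.57 and 0.82), without C6M9 replicate 2 that of Gnl3 (0.42), and without M9 replicate 1 those of Fbl and Gnl3 (0.56 and 0.59). In the lower-scored cells 2 of the 18 were called higher. With the top 12% of each library none was, and Ncl, Nolc1, Nop56, Nop58, Rrp9 and Gnl3 had differences of -0.06 to -0.39.

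Whether a difference between groups was another one in TCR-engaged than in other filtered cells was tested by the product of membership and group over 8 sums, 2 per library. edgeR's quasi-likelihood test called 70 of 11863 genes, 20 (0.169%) with a positive and 50 (0.421%) with a negative product. Without TMM the split was 44 positive and 39 negative, and with DESeq2 it was 13 and 12. The number of calls depended on single libraries, with 167 without C6M9 replicate 1 and 190 without C6M9 replicate 2, and on the choice of cells, with 228 for the top 8%, 292 for the top 16% and 327 for the top 12% of each library, of which 30 were among the 70.

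The growth genes were part of this. All 18 had a positive product (median 0.38, against -0.06 over all genes). Of the 18, 5 were called, against 0.169% called positive over all genes: Ncl (0.60, SE 0.08, adjusted p = 4.04e-04, edgeR), Hspd1 (0.64, SE 0.10), Npm1 (0.36, SE 0.06), Hspe1 (0.37, SE 0.08) and Odc1, ornithine decarboxylase (0.71, SE 0.13). In other filtered cells the group difference of Ncl was -0.08 (SE 0.10) and of Odc1 -0.44 (SE 0.14). Odc1 was not called without C6M9 replicate 1 (0.51), and Hspe1 not without either M9 library (0.35 and 0.40). None of the 18 was called with the top 12% of each library. Myc had no such product, at 0.01 (SE 0.18), with a difference of 0.84 in TCR-engaged and 0.80 in other filtered cells. Ptma, a chromatin protein, was outside the list and was called at 0.47 (SE 0.06).

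**Figure D5:**
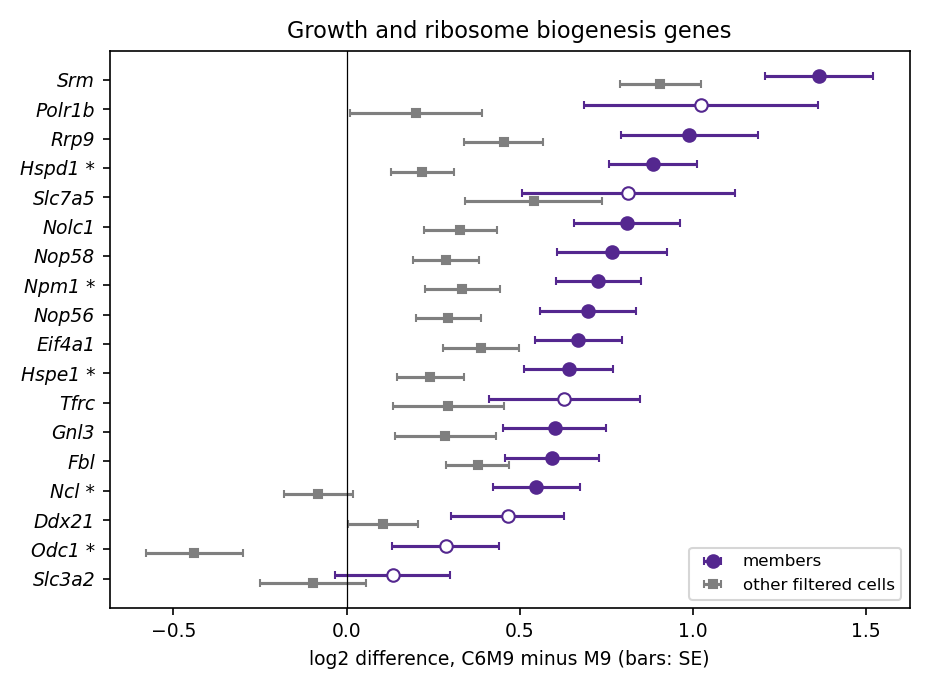
Log2 difference of C6M9 minus M9 (x axis, bars are SE) for 18 growth and ribosome biogenesis genes, in TCR-engaged cells (circles, labelled members, filled where called) and other filtered cells (squares); asterisks mark a called product. All 18 circles lie above 0, from 0.13 for Slc3a2 to 1.37 for Srm.

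Among the TCR-induced genes the product was called for Batf, Tnfrsf18, Zbtb32 and Irf8. Batf fell in TCR-engaged cells and was at 0.05 (SE 0.09) in other filtered cells, with a product of -1.07 (SE 0.15, adjusted p = 7.86e-04). Tnfrsf18 differed by -0.26 (SE 0.12) in other filtered cells, with a product of -1.15 (SE 0.16). Irf8 differed there by -0.02 (SE 0.11), with a product of 1.12 (SE 0.20), which was not called without C6M9 replicate 1 (0.71). Zbtb32 had a product of -2.14 (SE 0.44), not called without C6M9 replicate 1 (-1.80). The products of Batf and Tnfrsf18 were called in 17 of 17 alternatives, including DESeq2. By contrast Tnfsf4 was lower in C6M9 in TCR-engaged and in other filtered cells (-3.68 and -3.07), as were Lag3 (-1.27 and -1.08), Tox (-1.13 and -1.05), Cd22 (-2.34 and -2.12) and Izumo1r (-2.24 and -2.55), none with a called product. Slamf6, Id3, Ly6c2, Ly6a and Myb also had called products, of -0.46, 0.54, 0.77, 0.93 and 0.64; those of Slamf6, Ly6c2 and Myb were lost without C6M9 replicate 2 (-0.36, 0.28 and 0.47), and that of Slamf6 also without M9 replicate 1 (-0.42). With the top 12% of each library the product of Slamf6 was 0.12.

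The smallest p-values of the product were of abundant genes with small differences. Ifi27l2a, an interferon-inducible gene, was at 1713 and 1727 CPM in TCR-engaged cells of M9 and 1040 and 822 in C6M9, and at 1833, 1874, 1753 and 1683 in other filtered cells (-0.78, SE 0.07, adjusted p = 5e-06). Slfn2, a quiescence factor, had a product of -0.67 (SE 0.08) and the actin-binding thymosin Tmsb4x one of -0.36 (SE 0.04), which was 0.0083 with the top 12% of each library. The mitochondrial genes mt-Co3, mt-Co2, mt-Atp6 and mt-Co1 had products of -0.32 to -0.36. Median mitochondrial shares moved with them, at 4.42% and 4.57% of UMIs in TCR-engaged cells of M9 and 3.52% and 3.83% in C6M9, against 4.28%, 4.50%, 4.20% and 4.43% in other filtered cells; the part of RNA quality in these products was not tested. The CD8 T cell markers Cd3d, Cd3e, Cd3g and Cd8b1 had products of -0.31, -0.34, -0.40 and -0.37, and all 7 markers of that list were below 0. Their summed level was 5900 and 5710 CPM in TCR-engaged cells of M9 and 4888 and 4876 in C6M9, against 5549 to 5784 in other filtered cells. Cd3d and Cd3e were not called without either M9 library (-0.29 to -0.33).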

How the data were processed

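UMI counts per gene and cell barcode, deposited by the authors, came from Cell Ranger 6.0.0 on mm10, per the submitters' processing notes. Its annotation and its use of intronic reads are not stated there. A barcode was kept as a cell from 500 genes and 1000 UMIs upward, with mitochondrial UMIs up to 10%. Raw counts were summed per library over TCR-engaged and over other filtered cells. Groups were compared with edgeR 4.0.16 (R 4.3.3; quasi-likelihood test, TMM, Benjamini-Hochberg adjustment), with DESeq2 1.42.0 as an alternative. Cells were handled with Python 3.11.15 and scanpy 1.11.5, whose Scrublet gave doublet scores. The replicate is the library, and its number pairs nothing in the labels. The members and the gene lists were chosen with earlier results of these data known. Genes named beside the lists are the called genes of largest difference, up to 12 in each direction, with both libraries of 1 group above both of the other and at least 10 CPM; the 8 of smallest p for the product; and the 12 highest and 12 lowest against other filtered cells. In simulated data the group test recovered 69.4% of genes changed 2-fold and 94.8% of those changed 4-fold over 8245 genes, with 4.22% false calls. The product test recovered 49.0% and 70.5% over 11621 genes, with 5.79% false calls. Counts were drawn independently for each sum from the model and dispersion fitted to these data, and changes were placed only in genes above a lower limit of mean count. These rates therefore hold for data that follow the model and do not measure error in the real libraries.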

Additional observations from a re-analysis of the deposited data

Results flagged for a closer look

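For these genes the difference between C6M9 and M9 was another one in TCR-engaged cells than in other filtered cells, by the tested product of membership and group (edgeR, adjusted p at most 0.05; log2 values, positive where C6M9 was relatively higher in TCR-engaged cells). With 2 libraries per group no single library could be tested as standing apart. Among TCR-induced genes and receptors the product was 1.12 for Irf8, -1.07 for Batf, -2.14 for Zbtb32, -1.15 for Tnfrsf18 and -0.46 for Slamf6. Among memory and effector genes it was 0.54 for Id3, 0.64 for Myb, 0.77 for Ly6c2 and -0.42 for Nkg7. Among growth genes it was 0.60 for Ncl, 0.36 for Npm1, 0.71 for Odc1, 0.64 for Hspd1 and 0.37 for Hspe1. Among abundant genes it was -0.78 for Ifi27l2a, -0.36 for Tmsb4x, -0.67 for Slfn2 and 0.47 for Ptma, and among mitochondrial genes -0.35 for mt-Co3, -0.36 for mt-Co2, -0.32 for mt-Atp6 and -0.35 for mt-Co1. Among CD8 T cell markers it was -0.37 for Cd8b1, -0.31 for Cd3d, -0.34 for Cd3e and -0.40 for Cd3g. Fosb, a stress gene, had -1.28 and was not called without M9 replicate 1 (-1.17) or C6M9 replicate 2 (-0.77). The fitted values of the myeloid genes Lyz2 (-13.03) and Fscn1 (8.17) rest on few UMIs in TCR-engaged cells, 3, 13, 0 and 0 for Lyz2 and 3, 0, 21 and 2 for Fscn1, and give no bound.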

How the results depend on the processing

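The share of TCR-engaged cells was lower in C6M9 under every setting tried but the top 12% of each library, which fixes it, with differences of -18.5 to -8.82 points when 1 library was left out. Between groups 259 genes were called. The count was 137 with DESeq2, 410 with no filter on low counts, 411 with default robust dispersions, 807 for the top 16% of scores, 739 for the top 12% of each library, 571 with the score without Tnfrsf4 and Cd200, 64 in the lower-scored cells, and 219 to 330 with 1 library left out. For the product 70 were called, against 25, 152, 198, 292, 327 and 252 under the first 6 of these settings, 228 for the top 8%, 196 with cells thinned to 5000 UMIs, 221 without cells holding UMIs of other cell types, 118 without dendritic and Foxp3 cells (chosen after seeing the data), and 63 to 190 with 1 library left out. Gene values turned sign with the top 12% of each library for Utf1 (-0.47), Xcl1 (-0.77), Irf8 (-0.25), Myc (-0.63), Zbtb32 (0.14), Ncl (-0.21), Nolc1 (-0.20), Nop56 (-0.19), Nop58 (-0.14), Rrp9 (-0.056), Gnl3 (-0.39) and Nr4a1 (-1.38), and for the products of Tmsb4x (0.0083) and Slamf6 (0.12). With the top 8% they did for Cxcr6 (-0.059), Nr4a1 (-0.15) and Tcf7 (-0.087), and without C6M9 replicate 1 for H2-Aa (-1.38), H2-Ab1 (-1.33) and Nr4a3 (0.17), which with 1 library left out reached 6.21, 5.24 and -0.58 at the other end. Values that were not called turned for Nr4a1 with no TMM (-0.018) and with 1 library left out (-0.23 to 0.29, below 0 at -0.19 too) and with the score without Tnfrsf4 and Cd200 (-0.46), for Nr4a3 with the top 16% (0.025) and in the lower-scored cells (0.87), for Irf4 with 1 library left out (-0.70 to 0.17) and with the top 16% (0.13), and for Tcf7 with no TMM (-0.017) and with 1 library left out (-0.016 to 0.10, and -0.012). The cause was not tested. Over all alternatives of the named genes, group values kept direction and call in 1126, lost the call in 163, gained it in 3 and turned in 29, and products in 496, 76, 0 and 2. Depth limits C6M9 most, with 49 and 36 TCR-engaged cells.

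With the replicate number as a block, 521 genes were called between groups and 137 for the product. Over the sums of TCR-engaged cells, same-numbered libraries did not deviate together (correlation -0.060 over 5405 genes). The C6M9 sums hold only 49 and 36 cells, so a shared batch could be missed. The number is not taken as a pairing because the labels state none.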
